A study of Mus musculus with 4 samples.

Results

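Mast cells are tissue-resident immune cells that store histamine, proteases and heparin-like proteoglycan in granules and release them when their surface receptors are engaged. Described here are 10 genes used to recognise these cells, of 22180 genes measured in mouse synovium, the tissue lining the joint. They were chosen by name: subunits of the IgE receptor (Ms4a2, Fcer1a), the growth factor receptor Kit, the peptide-sensing receptors Mrgprb1 and Mrgprb2, the granule proteases Cpa3, Cma1, Mcpt4 and Tpsb2, and the histamine-forming enzyme Hdc. All 10 were measured, each by 1 probe set, the group of array probes summarised into 1 value for a gene.

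RNA from the region of the tibiotalar (ankle) joint was hybridised to 4 arrays, each with RNA from 1 pool of mice. The animals were male C57BL/6J mice, 12 weeks old. For the 2 arthritic pools, of 10 mice each, arthritogenic serum with K/BxN as its labelled source strain was injected into the peritoneum in 3 doses of 150 microlitres on days 0, 2 and 7, and the pools are labelled day 10, peak inflammation. For the 2 nonarthritic pools, of 3 mice each, the protocol gives sterile phosphate buffered saline at the same times, while the labels give K/BxN serum and day 0, so the treatment label and the day of these pools are not clear. The mice of a pool cannot be told apart, and pool size and labelled day differ with the disease. Lubricin, Prg4, the joint lubricant made by lining cells, read 13.66 and 13.66 in the nonarthritic and 13.27 and 13.52 in the arthritic pools (log2 signal), as a check of the tissue label.

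In the mouse, mast cells of connective tissue depend on KIT and its ligand and arise with the help of the transcription factors GATA2 and MITF. IgE bound to its receptor, whose alpha chain is Fcer1a and whose beta chain is Ms4a2, triggers degranulation when it is crosslinked by antigen, and Mrgprb2 triggers it in response to basic peptides and drugs. Tryptase (Tpsb2), chymases (Cma1, Mcpt4) and carboxypeptidase A3 (Cpa3) then act on the surrounding matrix and on other proteins. In serum transfer arthritis the injected antibodies are of the IgG class, and mast cells of the joint have been studied as one of their targets.

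The 250 bases before the transcription start are shown for the 4 members that fell in arthritic synovium and for Hdc, the member that rose. They are from RefSeq, build GRCm38.p6, and are read 5′ to 3′ on the strand of the gene. Capitals mark the GATA words searched on both strands, which were AGATAA or AGATAG and TGATAA or TGATAG.

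Ms4a2 (chr19:11623720-11623969, minus strand): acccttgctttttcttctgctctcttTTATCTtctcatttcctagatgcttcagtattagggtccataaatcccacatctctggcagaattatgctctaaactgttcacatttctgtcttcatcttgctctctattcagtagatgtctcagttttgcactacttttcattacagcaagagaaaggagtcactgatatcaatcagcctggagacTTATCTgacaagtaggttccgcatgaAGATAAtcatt

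Cpa3 (chr3:20242182-20242431, minus strand): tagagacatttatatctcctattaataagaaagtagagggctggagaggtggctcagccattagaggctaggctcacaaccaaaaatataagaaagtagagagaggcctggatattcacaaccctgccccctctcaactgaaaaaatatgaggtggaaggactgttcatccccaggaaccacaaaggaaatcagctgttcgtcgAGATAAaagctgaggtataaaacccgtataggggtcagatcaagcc

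Mrgprb1 (chr7:48456343-48456592, minus strand): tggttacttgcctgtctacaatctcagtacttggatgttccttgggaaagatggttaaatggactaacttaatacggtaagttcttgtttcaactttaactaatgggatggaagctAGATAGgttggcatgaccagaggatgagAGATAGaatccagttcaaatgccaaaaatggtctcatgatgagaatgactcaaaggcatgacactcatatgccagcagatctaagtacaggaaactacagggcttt

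Mrgprb2 (chr7:48558087-48558336, minus strand): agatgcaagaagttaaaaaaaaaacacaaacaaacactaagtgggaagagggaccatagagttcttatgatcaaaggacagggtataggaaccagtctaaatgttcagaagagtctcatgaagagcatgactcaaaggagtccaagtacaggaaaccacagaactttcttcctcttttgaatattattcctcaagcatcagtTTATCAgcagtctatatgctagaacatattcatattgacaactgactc

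Hdc (chr2:126618679-126618928, minus strand): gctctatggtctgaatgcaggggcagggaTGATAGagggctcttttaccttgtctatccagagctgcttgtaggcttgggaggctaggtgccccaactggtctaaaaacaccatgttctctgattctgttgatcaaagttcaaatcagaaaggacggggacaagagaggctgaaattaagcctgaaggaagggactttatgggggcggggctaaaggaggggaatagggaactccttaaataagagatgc

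Of the 10 members, 9 had an entry in the RefSeq promoter table, whose first entry was used for each gene, and 8 of these held at least 1 GATA word, as did 27.1% of the windows of 27025 genes. Ms4a2 held 3 such words, the nearest beginning 11 bases before the start, Mrgprb1 held 2, and Cpa3, Mrgprb2 and Hdc held 1 each, at 46, 48 and 221 bases before the start. The words also stood in the windows of Cma1, Mcpt4 and Fcer1a, and not in that of Kit. The E-box letters CACGTG or CATGTG, also searched on both strands, were found in the Fcer1a window only, against 17.6% of all windows. A match of letters does not show that a factor binds there, and the window of Hdc, which rose, held a GATA word as those of the members that fell did.

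The mast cell genes did not move as 1 group. Of the 10 members 4 were lower in arthritic synovium (Ms4a2, Mrgprb2, Mrgprb1 and Cpa3, from 3.11-fold to 2.01-fold), 1 was higher (Hdc, 6.41-fold), and 5 did not pass the test (Mcpt4, Kit, Tpsb2, Cma1 and Fcer1a). The test was limma across all 22180 genes, 2-sided, with genes called as risen or fallen at a Benjamini-Hochberg adjusted p under 0.05. By this rule 6.62% of all genes were lower and 8.72% were higher, and the counts of other lists below stand beside these shares. At an unadjusted p under 0.05, with all 4 arrays, 2823 of the 22180 genes were lower and 3640 were higher. These unadjusted counts over all genes were not made with a pool left out. The median log2 fold change of the members, arthritic minus nonarthritic, was -0.40, and that of all genes was 0.005. In 6 members both arthritic pools lay below both nonarthritic pools, as in 26.1% of all genes, and in 2, Hdc and Fcer1a, both lay above, as in 30.2% of all genes. The count of falling members rested on all 4 arrays: it was 1 without nonarthritic pool 1 and 2 without arthritic pool 1. It was 0 in limma without nonarthritic pool 2, where 4 members were lower at an unadjusted p under 0.05, and 0 without arthritic pool 2, where 5 were. In a bulk sample, fewer cells of a type and less RNA per cell cannot be told apart.

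**Figure D1:**
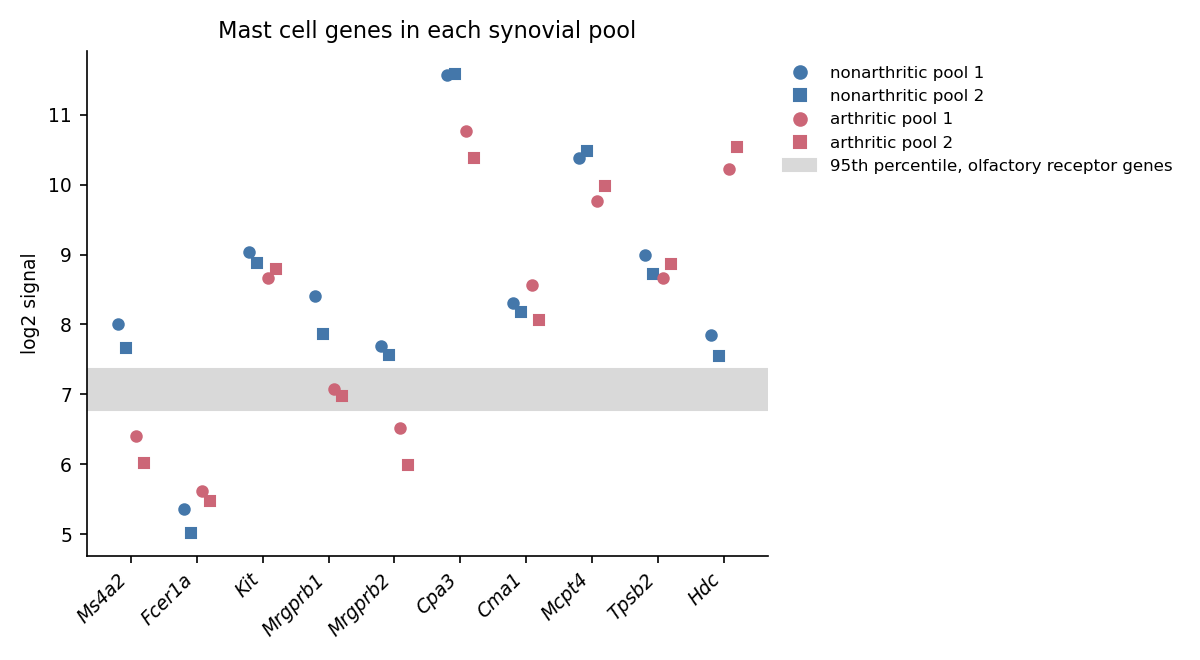
Log2 signal of the 10 mast cell genes (vertical axis) in the 4 pools, 1 point for each pool, with no averaging. The grey band spans the 95th percentiles of olfactory receptor genes on the 4 arrays, 6.77 to 7.36. Hdc is higher in both arthritic pools, the arthritic points of Ms4a2 and Mrgprb2 lie under the band, and those of Mrgprb1 lie within it.

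Signal near background limits how the fold changes are read. No detection calls were used, so the 1105 olfactory receptor genes, which synovium has little cause to express, served as a guide: their 95th percentile lay at 6.86 and 7.36 on nonarthritic arrays 1 and 2 and at 6.77 and 6.94 on arthritic arrays 1 and 2. Fcer1a lay under it on all 4 arrays. The arthritic signals of Ms4a2 and Mrgprb2 also lay under it, so their fold changes may understate the falls. The other 7 members lay above it on every array, Mrgprb1 only narrowly in arthritic pool 2, at 6.97 against 6.94. Hdc lay close to it in nonarthritic pool 2, at 7.55 against 7.36.

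The IgE receptor was read by Ms4a2 and Fcer1a, with very different signals. Ms4a2, the beta chain that amplifies signalling and is largely restricted to mast cells and basophils, read 8.01 and 7.67 in nonarthritic pools 1 and 2 and 6.40 and 6.01 in arthritic pools 1 and 2 (log2 signal). The groups did not overlap and stood 1.27 apart at their nearest values. Ms4a2 fell from 7.84 ± 0.24 to 6.21 ± 0.28 (mean ± SD, n = 2 pools), which is 3.11-fold. Its log2 fold change was -1.64 ± 0.20 (SE, limma adjusted p = 0.0016, 95% interval -2.10 to -1.17). Fcer1a, the chain that binds IgE, read 5.36, 5.02, 5.62 and 5.47 in the same order of pools. Its difference of 0.36 ± 0.18 did not pass (limma adjusted p = 0.236, 95% interval -0.06 to 0.77), and with every value under the olfactory receptor guide it gives no measure of the receptor's alpha chain in either group.

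Kit, the receptor for stem cell factor, which mast cells need to survive, read 9.04 and 8.88 in the nonarthritic and 8.67 and 8.79 in the arthritic pools. Both arthritic pools were lower, but the nearest values stood only 0.09 apart, and the log2 fold change of -0.23 ± 0.16 did not pass (limma adjusted p = 0.402, 95% interval -0.60 to 0.14). Kit is also made by other cells, melanocytes among them. Of 8 melanocyte genes 6 lay under the olfactory receptor guide on all arrays, 1, Mlana, fell (log2 fold change -0.70; named after its value was seen), and their mean signal, taken on the linear scale and given as log2, was 6.56 to 6.83 over the 4 arrays.

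Both Mrgpr members fell. Mrgprb2, the receptor through which basic peptides and many drugs activate mouse mast cells, read 7.69 and 7.56 in nonarthritic pools 1 and 2 and 6.52 and 5.99 in arthritic pools 1 and 2. It was 2.58-fold lower (log2 fold change -1.37 ± 0.20 SE, limma adjusted p = 0.00387, 95% interval -1.84 to -0.90). Mrgprb1, a related receptor whose gene lies on the same chromosome with 1 protein-coding gene between them, read 8.41 and 7.87 in the nonarthritic and 7.07 and 6.97 in the arthritic pools. It was 2.17-fold lower (log2 fold change -1.12 ± 0.21, limma adjusted p = 0.00951). In both genes the lowest nonarthritic value was above the highest arthritic value, by 1.04 for Mrgprb2 and 0.80 for Mrgprb1. Family members are alike in sequence, so probes may read more than 1 of them.

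Across the whole Mrgpr family, looked at after these values were seen, 21 genes were measured and 12 lay under the olfactory receptor guide on all arrays. Besides the members, Mrgprh (-1.15, limma adjusted p = 0.00439) and Mrgprx2 (-0.67, limma adjusted p = 0.0269) fell, and Mrgpra2a rose by 1.78 on the log2 scale (limma adjusted p = 0.00166). The signal of Mrgprh in arthritic pool 2, 6.59, lay under the guide. Mrgpra2a read 7.7 and 8.0 in the nonarthritic and 9.90 and 9.35 in the arthritic pools. The family median was -0.33, and the other 16 genes did not pass.

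Among the granule proteases, only Cpa3 passed the test. Carboxypeptidase A3, a metalloprotease that trims peptides and is stored with chymase and heparin, read 11.57 and 11.59 in nonarthritic pools 1 and 2 and 10.77 and 10.38 in arthritic pools 1 and 2. The nonarthritic pools were nearly equal and both arthritic pools lower, by at least 0.80. Cpa3 fell 2.01-fold, from 11.58 ± 0.01 to 10.58 ± 0.28 (log2 fold change -1.01 ± 0.18 SE, limma adjusted p = 0.00882). On the linear scale that is 3040.3 and 3082.7 signal units against 1746.2 and 1332.6. When all 41345 probe sets were tested together, the adjusted p of Cpa3 was 0.0619 and that of Mrgprb1 0.0693, so both lost the call.

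The chymases and tryptases gave smaller differences. Mcpt4, a chymase of connective tissue mast cells, read 10.38 and 10.49 in the nonarthritic and 9.77 and 9.98 in the arthritic pools, which did not overlap. Its log2 fold change of -0.56 ± 0.16 missed the threshold (limma adjusted p = 0.056, 95% interval -0.94 to -0.18). In limma Mcpt4 passed with an intensity trend in the prior (adjusted p = 0.0401), with quantile normalization again (0.0421) and with dim genes left out (0.0315). It did not pass with the mean of a gene's probe sets (0.0552), centring (0.059) or a robust prior (0.0514). Nor did it pass with the pool number as a block (0.0673) or all probe sets tested (0.144). With a pool left out, its log2 fold change was -0.665 to -0.455. Cma1, the other chymase, read 8.31 and 8.18 in the nonarthritic and 8.56 and 8.06 in the arthritic pools, so the arthritic pools lay on either side of both nonarthritic ones. Its log2 fold change was 0.07 ± 0.20 (limma adjusted p = 0.881, 95% interval -0.40 to 0.53). Tpsb2, a tryptase, read 8.99 and 8.72 in the nonarthritic and 8.66 and 8.87 in the arthritic pools, overlapping, with a log2 fold change of -0.09 ± 0.17 (limma adjusted p = 0.797, 95% interval -0.49 to 0.31). The intervals reach below 0 in both genes, so these values do not show that Cma1 and Tpsb2 stayed the same.

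**Figure D2:**
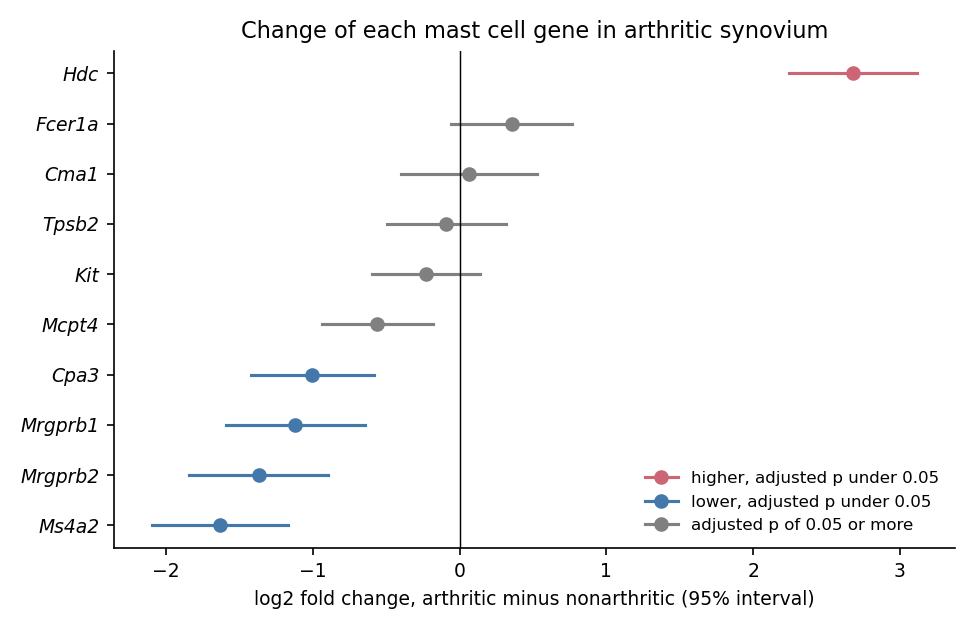
Log2 fold change of each mast cell gene, arthritic minus nonarthritic (horizontal axis), with its 95% interval from limma, over 2 pools a group. Hdc stands at 2.68 to the right, Ms4a2 at -1.64 to the left, and the intervals of Kit, Tpsb2, Cma1 and Fcer1a cross 0.

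The relatives of these proteases were mostly dim. Of 12 mast cell and basophil protease genes measured, a family looked at after the values were seen, 7 lay under the olfactory receptor guide on all arrays, among them the mucosal mast cell proteases Mcpt1 and Mcpt2. Tpsab1, another tryptase, read 6.90, 7.05, 6.40 and 6.44 in the order used above, and did not pass (limma adjusted p = 0.0507). Its arthritic signals lay under the guide. Proteases of 1 family are related in sequence, so probes may read more than 1 of them. Cma1 and Mcpt4 share a locus, with 4 protein-coding genes between them. Of the 12 protease genes 0 passed limma's test in either direction. At an unadjusted p under 0.05, 4 were lower and 0 higher, beside 2823 lower and 3640 higher of all 22180 genes.

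**Figure D3:**
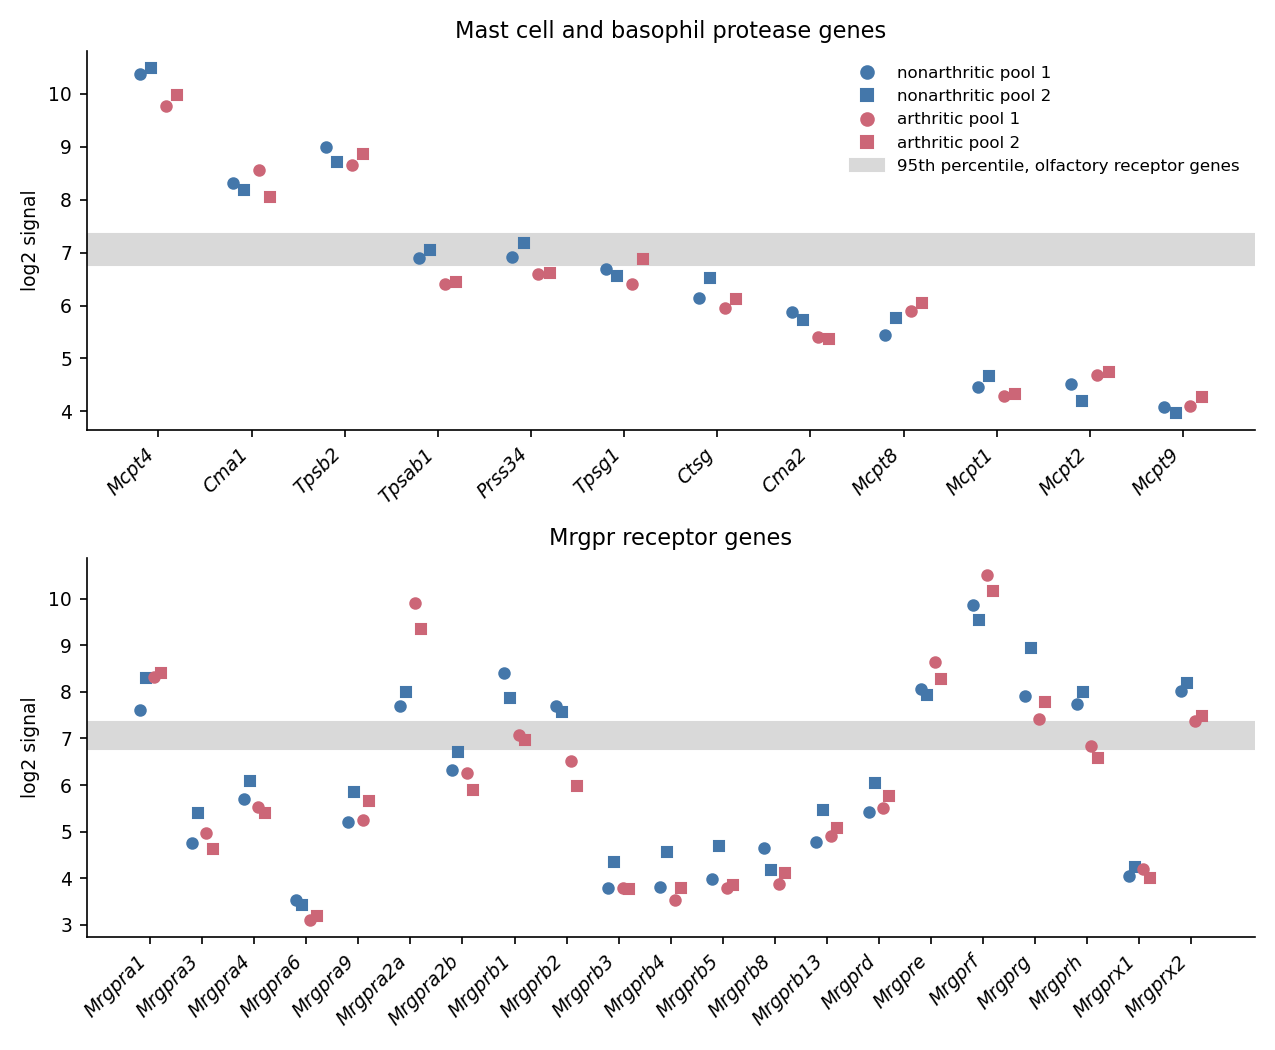
Log2 signal (vertical axes) of 12 mast cell and basophil protease genes (top) and of 21 Mrgpr genes (bottom) in each of the 4 pools. The grey band spans the 95th percentiles of olfactory receptor genes, 6.77 to 7.36: Mcpt4, Cma1 and Tpsb2 lie above it in every pool, and 12 Mrgpr genes lie under it on all arrays.

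Hdc, histidine decarboxylase, which makes histamine from histidine, went the other way. It read 7.85 and 7.55 in nonarthritic pools 1 and 2 and 10.22 and 10.54 in arthritic pools 1 and 2. Both arthritic pools were higher, by at least 2.37. Hdc rose 6.41-fold, from 7.70 ± 0.21 to 10.38 ± 0.23 (log2 fold change 2.68 ± 0.19 SE, limma adjusted p = 0.000184), at rank 38 of 22180 genes counted from the highest. It passed in all 12 alternatives, with adjusted p-values up to 0.0495. On the linear scale Hdc read 230.7 and 187.4 signal units in the nonarthritic and 1192.7 and 1488.9 in the arthritic pools.

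Neutrophils and other myeloid cells can also make Hdc, and the neutrophil genes moved in the same direction. All 11 measured neutrophil genes rose, with a median log2 fold change of 3.01, and their mean log2 signal was 7.55 and 7.10 in nonarthritic pools 1 and 2 and 10.08 and 10.39 in arthritic pools 1 and 2. Mmp8, Ly6g and Trem1 lay under the olfactory receptor guide in both nonarthritic pools, so their changes, and that of the mean, may be understated. The chemokine receptor Cxcr2 read 8.43 and 8.16 against 11.87 and 11.98, and Csf3r, the receptor for granulocyte colony-stimulating factor, 8.81 and 8.01 against 11.29 and 11.55. Hdc changed by 2.68 and the mean of the neutrophil genes by 2.91 on the log2 scale. Both were higher in nonarthritic pool 1 than in pool 2 and in arthritic pool 2 than in pool 1. With 2 pools a group such an order says little, and Ly6g in the nonarthritic and Retnlg in the arthritic pools had the opposite order. The part of neutrophils in the signal of Hdc was not tested.

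**Figure D4:**
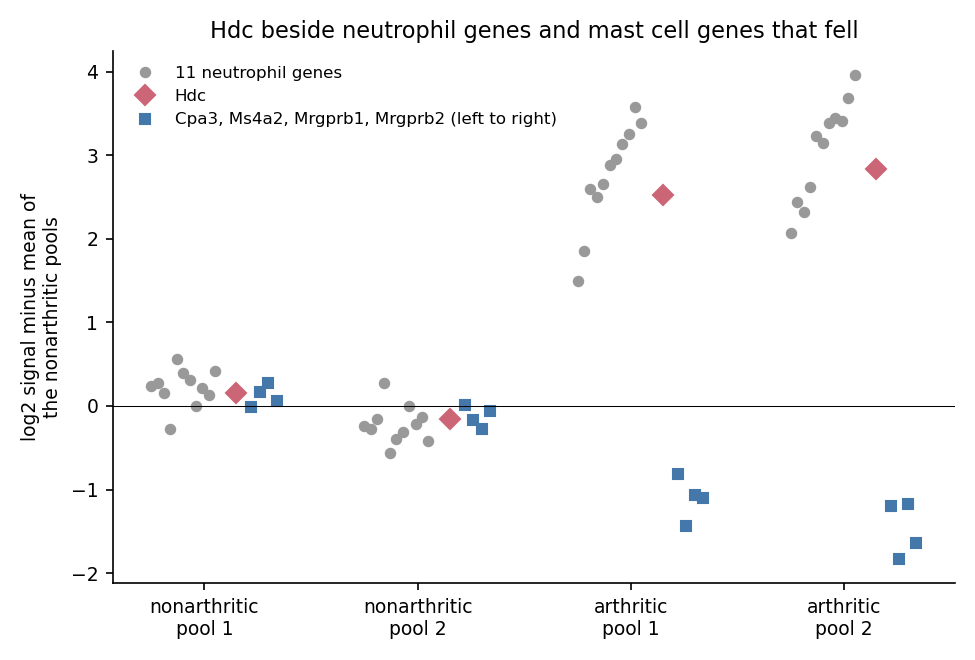
Log2 signal of Hdc (diamonds), 11 neutrophil genes (grey) and the 4 mast cell genes that fell (squares), each minus its own mean over the nonarthritic pools (vertical axis), in the 4 pools. Hdc lies among the neutrophil genes in both arthritic pools, while Cpa3, Ms4a2, Mrgprb1 and Mrgprb2 lie below 0.

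By the smallest root mean square distance over the 4 arrays, after each gene's own mean was subtracted, the genes most like Hdc were A530064D06Rik (0.06), the IgG receptor Fcgr4 (0.07), Chl1 (0.11), Asprv1 (0.13) and Sorl1 (0.14). The genes most like Ms4a2 were Gprc5a (0.02), Mybpc2, a muscle gene (0.04), Sema3d (0.04), the leukotriene C4 synthase Ltc4s (0.06) and Rasd1 (0.06), in log2 units. With 4 arrays many genes look alike: 125 lay within 0.2 of Ms4a2 and 18 within 0.2 of Hdc.

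Histamine is sensed by 4 receptors and removed by a few enzymes. Of 8 genes measured from this list, 1 rose and 1 fell, with a median of -0.16, beside 8.72% and 6.62% of all genes. Hrh2, a histamine receptor found on several immune cells, rose from 7.48 and 7.46 to 8.05 and 8.56 (log2 fold change 0.84 ± 0.20, limma adjusted p = 0.0268). Maob, a monoamine oxidase that acts on the methylated product of histamine, fell from 10.97 and 10.99 to 9.36 and 9.09 (log2 fold change -1.76 ± 0.17, limma adjusted p = 0.000547). Hrh4 and Aoc1 lay under the olfactory receptor guide on all arrays. In the granule list, Slc18a2, the vesicle transporter that loads histamine and other monoamines, fell from 8.10 and 8.03 to 7.48 and 7.19 (log2 fold change -0.73 ± 0.17, limma adjusted p = 0.0247), opposite in direction to Hdc.

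Of the 13 genes of the granule list 1 rose and 1, Slc18a2, fell, with a median of 0.03, beside 8.72% and 6.62% of all genes. The gene that rose was Gzmb, a granzyme that cytotoxic lymphocytes also make, by 2.17 on the log2 scale (limma adjusted p = 0.000333). Both nonarthritic signals of Gzmb lay under the guide, so the rise may be understated.

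Of 17 genes measured that signal below the IgE receptor, 4 rose and 0 fell in limma, with a median of 0.19, beside 8.72% and 6.62% of all genes. At an unadjusted p under 0.05, 7 were higher and 2 were lower, beside 3640 higher and 2823 lower of all 22180 genes. Vav1 (1.74 ± 0.26), Plcg2 (1.04 ± 0.19), the kinase Syk (0.89 ± 0.20) and the adaptor Lcp2 (0.76 ± 0.17) rose on the log2 scale. All of them also act in neutrophils, macrophages or lymphocytes, and 3 of 6 general leukocyte genes rose as well, with a median of 0.64 and the mean signal of the 6 at 10.64 and 10.49 against 11.17 and 11.18 (log2 of the linear mean). The part of other leukocytes in these rises was not tested. Fcer1g, the gamma chain that the IgE receptor shares with receptors for IgG, read 12.28 and 12.25 against 12.65 and 12.47 and did not pass (0.30 ± 0.16, limma adjusted p = 0.27). Rgs13, a regulator of G protein signalling, lay under the olfactory receptor guide on all arrays.

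**Figure D5:**
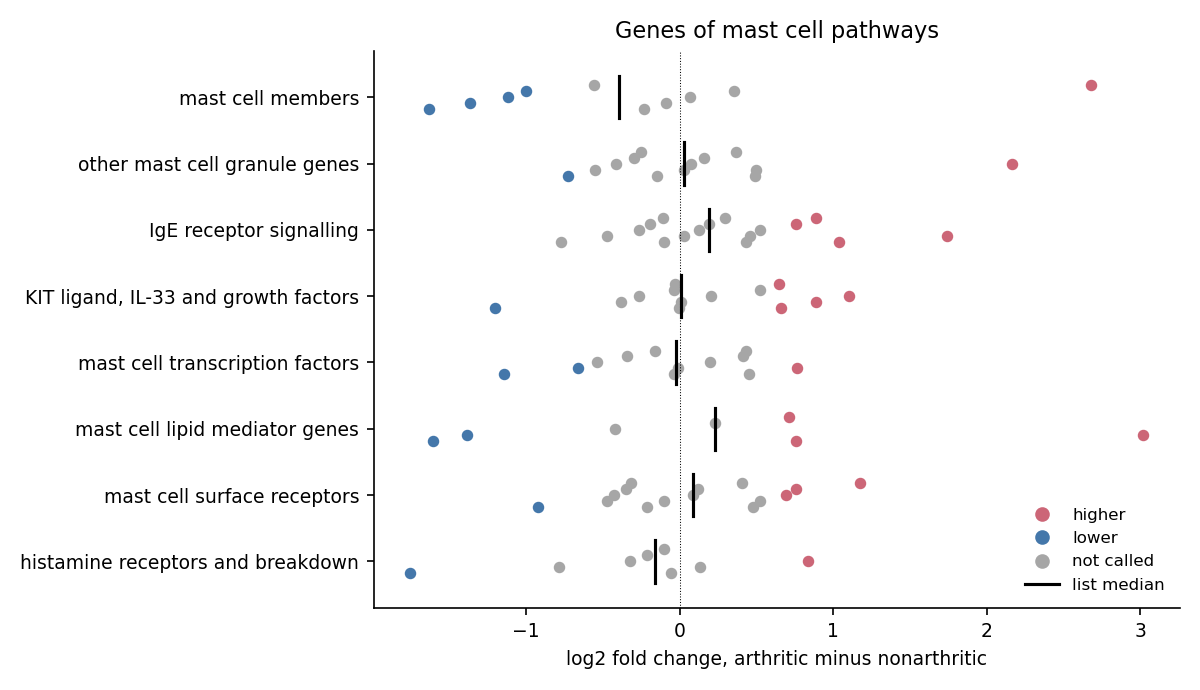
Log2 fold change, arthritic minus nonarthritic (horizontal axis), of every measured gene in 8 lists on mast cells. Each point is 1 gene, coloured by its call in limma, and black bars are list medians, which run from -0.40 for the mast cell members to 0.23 for lipid mediator genes.

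Among factors that feed or call mast cells, and their receptors, 4 of 13 genes measured rose and 1 fell, with a median of 0.005, beside the same shares of all genes. Kitl, which encodes the KIT ligand, read 9.12 and 9.29 in the nonarthritic and 8.90 and 8.75 in the arthritic pools, without passing (-0.38 ± 0.16, limma adjusted p = 0.167). Il33, an alarmin that activates mast cells, read 9.91 and 9.57 against 10.26 and 10.27 and also did not pass (0.53 ± 0.17, limma adjusted p = 0.085). Tslp, an epithelial and stromal cytokine of type 2 immunity, fell (log2 fold change -1.21, limma adjusted p = 0.00213). Both arthritic signals of Tslp lay under the olfactory receptor guide, so the fall may be understated. Csf2rb2 (1.10), the interleukin-3 receptor chain Il3ra (0.89) and Il1rap (0.66) rose, as did Csf2rb (0.65), named after its value was seen. They encode receptor chains that many myeloid cells carry. Il1rl1, the receptor for interleukin-33, was not analysed here.

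Of 12 transcription factors, 1 rose and 2 fell, with a median of -0.02, beside 8.72% and 6.62% of all genes. Mitf, which mast cells need and which osteoclasts and melanocytes also use, fell from 10.49 and 10.14 to 9.17 and 9.17 (-1.15 ± 0.18, limma adjusted p = 0.00439), and Lmo2 fell by 0.67 on the log2 scale (adjusted p = 0.0354). Runx1 rose by 0.77 (adjusted p = 0.0149). Gata2 read 9.13 and 8.84 against 8.60 and 8.29, apart but without passing (-0.54 ± 0.19, limma adjusted p = 0.0939).

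Of 7 lipid mediator genes measured 3 rose and 2 fell, with a median of 0.23, beside 8.72% and 6.62% of all genes. The leukotriene enzymes Ltc4s, which makes leukotriene C4, and Alox5, the 5-lipoxygenase, fell by 1.61 and 1.39 on the log2 scale (limma adjusted p = 0.00219 and 0.00144). Ltc4s read 9.36 and 9.10 in the nonarthritic and 7.88 and 7.36 in the arthritic pools. Ptgs2, the inducible prostaglandin synthase, rose by 3.02 (adjusted p = 0.00167), Pla2g4a by 0.76 and Lpcat2, named after its value was seen, by 0.72. Of 15 surface receptors 3 rose (Siglece at 1.18, S1pr2 at 0.76 and Cd300a at 0.70), with a median of 0.09, beside the same shares of all genes. The prostaglandin E2 receptor Ptger3 was the 1 that fell (-0.93 ± 0.17, limma adjusted p = 0.0104).

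Basophils also carry the IgE receptor and make Hdc. Of 9 basophil genes 1, Il3ra, rose and 0 fell in limma, beside 8.72% and 6.62% of all genes. At an unadjusted p under 0.05, 3 were lower and 1 was higher, beside 2823 lower and 3640 higher of all 22180 genes. Mcpt8, Cd200r3, Il4 and Cd69 lay under the olfactory receptor guide on all arrays, while Gata2, Il3ra, Itga2 and Csf1, which other cells also express, lay above it. Prss34, another protease of the list, read 6.91 and 7.19 against 6.60 and 6.62 (limma adjusted p = 0.124), with both arthritic signals under the guide. Mcpt8, the basophil protease, read 5.44, 5.77, 5.89 and 6.04 in the order used above. The mean signal of the 9 genes was 8.81 and 8.69 against 8.52 and 8.48 (log2 of the linear mean). Of 7 eosinophil genes 4, with the granule genes Epx and Prg2 among them, lay under the guide on all arrays. In that list 0 rose and 1, Alox15, fell, from 9.10 and 9.17 to 7.70 and 7.78 (limma adjusted p = 0.00103).

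The tissue around the joint also differed between the groups, and mast cells lie in several of its parts. All 9 adipocyte genes fell, with a median of -2.55, and their mean signal was 11.45 and 11.40 in nonarthritic pools 1 and 2 and 9.39 and 8.89 in arthritic pools 1 and 2 (log2 of the linear mean). All 10 skeletal muscle genes fell, with a median of -2.84, and their mean signal was 11.69 and 12.08 against 9.23 and 8.75. Of 7 Schwann cell and nerve genes 5 fell, with a median of -0.92, and their mean signal was 10.32 and 10.37 against 9.65 and 9.45. Skin epithelium genes had 1 falling member of 7 (Epcam, named after its value was seen), with a mean signal of 7.02 to 7.16 on all arrays. Synovial fibroblast genes had 6 rising members of 10 and a mean signal of 12.71 and 12.59 against 12.90 and 12.90. Blood vessel genes had 2 rising members of 8, with 10.61 and 10.56 against 10.89 and 10.59. The mean signal of the 10 mast cell members, in which the rise of Hdc offsets the falls, was 9.41 and 9.36 against 9.07 and 9.05. Without Hdc, the mean of the other 9 was 9.51 and 9.47 against 8.86 and 8.73. The part of fat, muscle and nerve tissue in the falls of Ms4a2, Mrgprb1, Mrgprb2 and Cpa3 was not tested.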

How the data were processed

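Total RNA, 500 ng of each pool, was labelled and hybridised to Affymetrix MoGene 2.0 ST arrays, 1 array a pool. The deposited values are log2 signals made by the authors with RMA, Affymetrix Expression Console and Affymetrix Power Tools, per the submitters' processing notes. The sources used here do not name versions or settings, and no detection calls were used. The array medians were 6.96 to 7.15.

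Of 41345 probe sets, 23521 had 1 gene symbol in GEO's platform annotation, 1814 several and 16010 none. The probe set with the highest mean was kept for each of 22180 genes, of which 21994 were matched to RefSeq by gene number. Differences were tested with limma 3.58.1 in R 4.3.3 (2-sided, Benjamini-Hochberg over all genes, called at 0.05), and the step was tested on simulated data. Summed list levels are log2 of the mean linear signal. The series calls the pools biological replicates. With 2 a group, their number limits the precision. The p-values set each group difference against the spread between pools, which limma estimates in part from all genes.

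The members and lists were chosen with earlier results of these data known. The rule named all members, in each mast cell list up to 4 called genes with the greatest change plus the genes the list is about, up to 3 genes of highest signal in other lists, and the 5 genes closest in pattern to Ms4a2 and Hdc. Alternatives were the probe set rule, centring, quantile normalization again, a filter on dim genes, the variance prior, the pool number as a block, all probe sets, and leaving out each pool.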

Additional observations from a re-analysis of the deposited data

How the results depend on the processing

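Across all genes 1933 rose and 1469 fell. Testing all 41345 probe sets together gave 685 rising and 781 falling probe sets and 2 falling members, Ms4a2 and Mrgprb2. With the replicate block (pool number as a block) 1216 genes rose and 1027 fell, and the same 4 members fell and Hdc rose. Over all genes, the pool 1 minus pool 2 difference of the nonarthritic group correlated with that of the arthritic group at 0.176. That value does not establish a pairing. Leaving out 1 pool at a time, where the lone pool is assumed to vary like the other group, gave 47 to 637 rising and 105 to 584 falling genes and 0 to 2 falling members. Hdc kept its call in all 12 alternatives, with log2 fold changes of 2.52 to 2.84. The sign turned in Cma1, which was never called, at -0.005 with quantile normalization again and at -0.19 to 0.32 with a pool left out, and in Tpsb2, also never called, at -0.225 to 0.045 with a pool left out. The cause was not tested. Leaving out dim genes kept 13804 genes and dropped Mrgprb2 and Fcer1a, and 4 members, Cpa3, Mcpt4, Ms4a2 and Mrgprb1, then fell. Signals near the level of olfactory receptor genes limit Fcer1a in all pools and Ms4a2, Mrgprb2 and, less so, Mrgprb1 in arthritic pools.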

Other observations

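The Ms4a family, to which the beta chain of the IgE receptor belongs, had 20 measured genes. Of these, looked at after the results were seen, 6 rose and 3 fell in limma, beside 8.72% and 6.62% of all genes. Their median log2 fold change was 0.04, and 8 lay under the 95th percentile of olfactory receptor genes on all arrays. Beside Ms4a2, the genes that fell were Ms4a1, which encodes the B cell antigen CD20 (7.10 and 7.70 against 5.75 and 5.57, limma adjusted p = 0.00182, the arthritic signals being under that percentile), and Ms4a8a (8.85 and 8.81 against 7.78 and 7.53, adjusted p = 0.00299). Ms4a7, known from macrophages, rose from 10.29 and 9.88 to 11.53 and 11.64 (limma adjusted p = 0.0017). Of 9 granzyme genes, Gzmb and Gzmc rose. Gzmc read 5.02 and 5.14 in the nonarthritic and 8.38 and 6.99 in the arthritic pools (limma adjusted p = 0.00355), and both genes lay under that percentile in the nonarthritic pools.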
